A study of Mus musculus with 8 samples.

Results

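In cochlear RNA, 9 genes of mitochondrial calcium transport were followed: the uniporter pore *Mcu* and its subunit *Smdt1*, the gatekeepers *Micu2* and *Micu3*, the inner membrane exchangers *Letm1* and *Slc8b1*, and the outer membrane channels *Vdac1*, *Vdac2* and *Vdac3*. They were chosen by gene symbol as a functional group, with earlier results of these data known, and make up 9 of the 47628 entries that name a gene in each count table. All 9 passed the minimum for testing (a mean normalized count over 10), as did 19366 genes in all. The libraries came from 4 WT mice (WT_4, WT_5, WT_6 and WT_8) and 4 heterozygous Opa1+/- mice (Het_2, Het_7, Het_484 and Het_491), littermates at postnatal day 21, all untreated. Opa1+/- mice carry on 1 allele, in every tissue, a knock-in deletion of TTAG in *Opa1*, the gene of a dynamin-related GTPase of the mitochondrial inner membrane, and WT mice carry none. The mice are of mixed strain background, 8 cochleae of 4 mice were taken per genotype, and homozygous mutants die before birth, so the comparison is with a partial loss of *Opa1*.

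Calcium crosses the outer mitochondrial membrane through the voltage-dependent anion channels, the VDAC proteins, which also pass ATP, ADP and other metabolites. It then enters the matrix through the uniporter, in which MCU forms the pore, EMRE (the product of *Smdt1*) is needed for conduction in animals and links the pore to its gatekeepers, and the MICU proteins close the pore at low calcium and open it when cytosolic calcium rises. MICU3 is a gatekeeper best known from neurons. Calcium leaves the matrix through the sodium-calcium exchanger NCLX, the product of *Slc8b1*, while LETM1 exchanges cations for protons. Hair cells and auditory neurons handle large calcium loads during transduction and transmitter release.

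The 3 VDAC genes are related in sequence, and this bears on how their reads can be counted. Over 852 aligned coding bases, *Vdac2* and *Vdac3* were identical at 71.5%, *Vdac1* and *Vdac2* at 70.4%, and *Vdac1* and *Vdac3* at 66.0%. No identical run between these genes exceeded 17 bases, far below the 80 bases of a read. The 80 coding bases over which the 3 genes are most alike are shown from the GENCODE transcripts, with the 25 positions at which they are not all identical in capitals (coding bases 514 to 593 of *Vdac1*, 550 to 629 of *Vdac2* and 517 to 596 of *Vdac3*).

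Vdac1: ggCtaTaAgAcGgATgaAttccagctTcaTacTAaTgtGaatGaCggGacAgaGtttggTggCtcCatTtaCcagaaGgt

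Vdac2: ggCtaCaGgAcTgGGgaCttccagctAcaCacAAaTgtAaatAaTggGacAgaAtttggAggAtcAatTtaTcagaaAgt

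Vdac3: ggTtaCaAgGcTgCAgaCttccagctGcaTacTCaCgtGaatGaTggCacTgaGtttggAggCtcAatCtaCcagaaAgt

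*Vdac3* has a near-identical copy elsewhere in the genome, *Vdac3-ps1*, a pseudogene on chromosome 13 from 18030741 to 18031593 of GRCm38. It matches the *Vdac3* coding sequence at 99.5% of 852 aligned bases, with an identical run of 407 bases. Even the 80 bases over which the pair differ most contain only 2 differences, in capitals below (coding bases 369 to 448 of *Vdac3*, bases 366 to 445 of *Vdac3-ps1*).

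Vdac3: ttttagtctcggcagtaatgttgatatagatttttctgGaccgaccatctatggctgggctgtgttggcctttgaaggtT

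Vdac3-ps1: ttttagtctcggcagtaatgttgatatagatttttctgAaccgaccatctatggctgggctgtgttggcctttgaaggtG

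Of the 1344 runs of 80 bases in the *Vdac3* transcript, 533 (39.7%) also occur in an annotated transcript of *Vdac3-ps1* or *Gm7591*, so its counts are uncertain. No entry that names a gene bears the symbol *Gm7591*, so no counts are given for it. This share was 5.84% for *Micu3*, all of it in *Fgf20*, which lies on the opposite strand, overlaps 874 bases of *Micu3* and had between 0 and 5 counts per mouse. It was 2.88% for *Vdac2*, with the pseudogene *Gm7832* at 84 to 137 counts per mouse, and 0.319% for *Slc8b1*. No such run was found for *Mcu*, *Smdt1*, *Micu2*, *Letm1* or *Vdac1*.

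Counts on named genes ranged from 15978051 to 20828030 per mouse. Levels are given as CPM, in which the counts on named genes of each library are scaled to 1000000 after TMM adjustment, with the SD over 4 mice. *Opa1*, the targeted gene, had 119.7 ± 6.09 CPM in WT against 65.6 ± 4.42 CPM in Opa1+/- mice (SD, n = 4 each), lower in 4 of 4 Opa1+/- mice. This was a log2 fold change of -0.87 (standard error, SE, 0.0677), with an adjusted p of 0.00515 in edgeR (quasi-likelihood, Benjamini-Hochberg over all genes tested), the lowest of all genes, which was 0.0704 without Het_2. Transcripts of the labelled tissue were present, with all 12 hair cell markers listed, *Otof* and *Slc26a5* among them, and 11 of 11 markers of spiral ganglion neurons. Of the other marker lists, 9 of 9 Schwann cell genes had a higher fitted value in Opa1+/- mice (sums of 3292 to 4511 CPM in WT and 3959 to 5363 CPM in Opa1+/- mice, median log2 fold change 0.22) and 1 of 8 stria vascularis genes did (median -0.15, although their sum was 539.2 ± 148.9 CPM in WT against 546.8 ± 77.6 CPM in Opa1+/- mice, SD, n = 4 each), with none called. Blood and muscle were present as well: 10 erythroid genes summed to between 7754 and 25080 CPM, and 12 skeletal muscle genes to between 28.9 and 2922 CPM per mouse. In whole tissue, fewer cells of a type and less RNA per cell cannot be told apart.

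None of the 9 genes differed between WT and Opa1+/- cochleae at an adjusted p under 0.05, with adjusted p-values from 0.7215 to 0.963 (edgeR's quasi-likelihood test). Among all genes tested, 5 (0.0258%) passed this threshold, from 0 without Het_2 (1087 at an unadjusted p under 0.05) to 9 without WT_4. The log2 fold changes of the 9 genes lay between -0.19, for *Micu3*, and 0.17, for *Smdt1*, with 3 genes higher and 6 lower in the mean of Opa1+/- mice. The median was -0.06, against 4.0e-04 over all genes tested, and the median size without sign was 0.09 for the 9 genes and 0.10 for all genes. Without adjustment, 2 of the 9 genes (22.2%), *Micu3* and *Smdt1*, had a p-value under 0.05, against 1302 genes (6.72%) of all tested. That count was 1 without WT_5, WT_6 or Het_491, 0 without WT_8, Het_2 or Het_484, and 2 without WT_4 or Het_7. Over all genes the count was 2006, 1051, 1517 and 718 without WT_4, WT_5, WT_6 and WT_8. It was 1087, 1361, 942 and 1096 without Het_2, Het_7, Het_484 and Het_491. In none of the 9 genes were the groups free of overlap, whereas 835 genes (4.31%) of all tested showed such a separation. DESeq2's Wald test, fitted and adjusted over every gene with a count and then held to the same minimum, called 0 of the 9 genes and 23 (0.119%) of all genes.

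**Figure D1:**
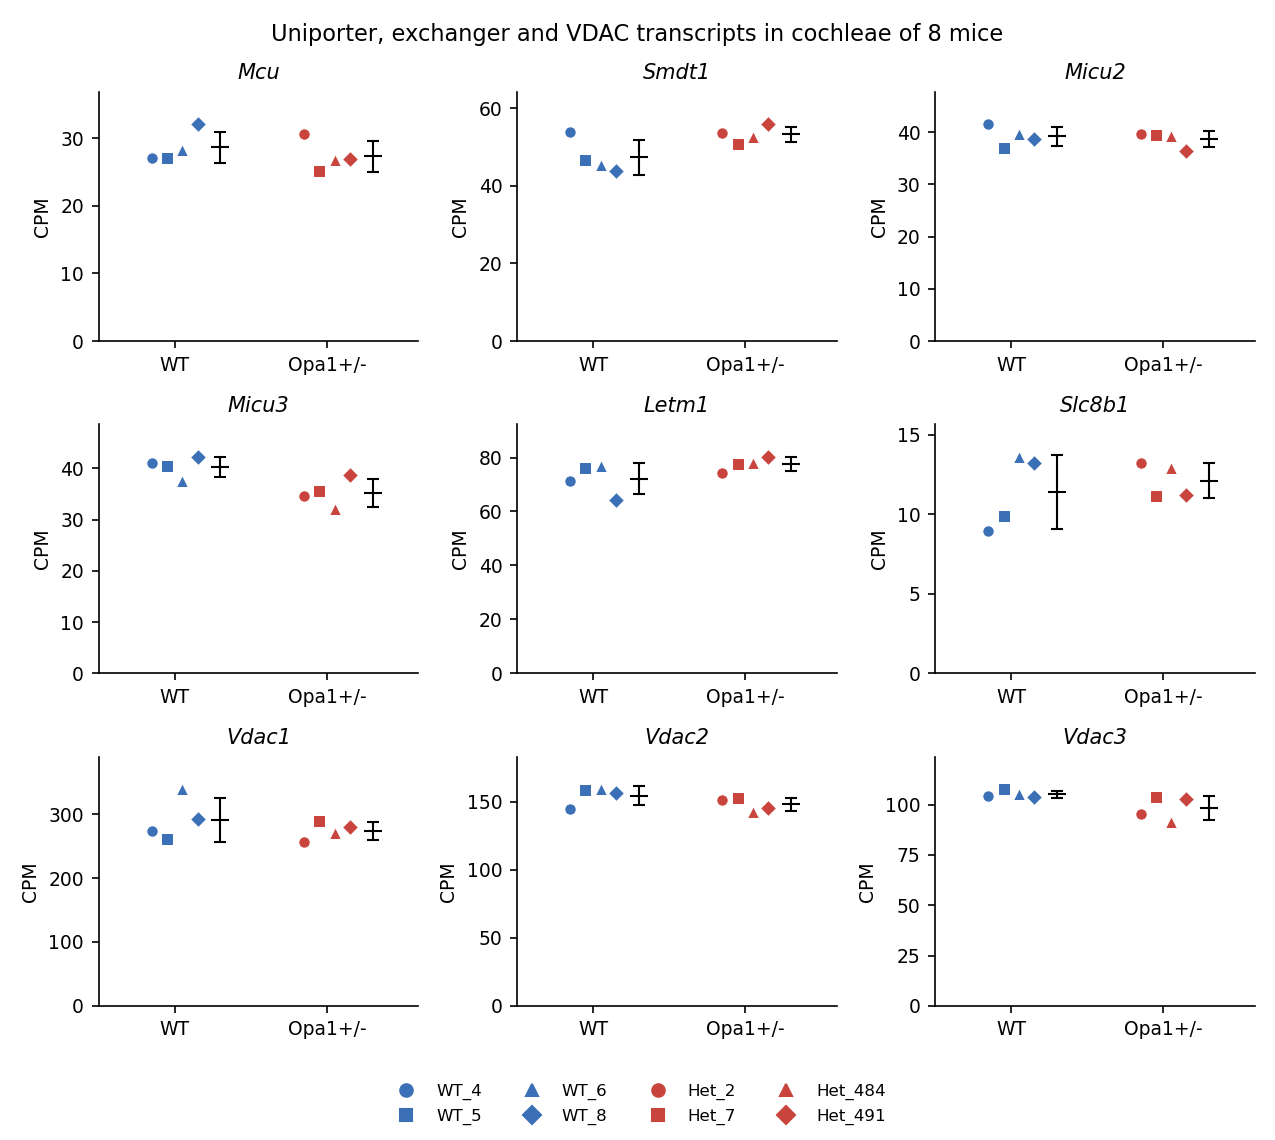
CPM of each of the 9 genes in 8 cochlear libraries, with 1 panel per gene, 1 symbol per mouse and WT in blue and Opa1+/- in red. Black marks are the mean and SD of 4 mice. In each panel the ranges of the groups overlap.

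*Mcu*, the pore-forming subunit, lies on chromosome 10 from 59446984 to 59616692 (GRCm38, minus strand). Its level was 27.1, 27.1, 28.3 and 32.02 CPM in WT_4, WT_5, WT_6 and WT_8. In Het_2, Het_7, Het_484 and Het_491 it was 30.6, 25.1, 26.7 and 26.9 CPM. WT_8 and Het_2 stood above the other 6 mice, which lay close together. The means were 28.6 ± 2.34 and 27.3 ± 2.30 CPM (SD, n = 4 each), and the log2 fold change was -0.07 with a 95% interval from -0.25 to 0.12 (adjusted p = 0.899 from edgeR). In percent of the WT level, the interval runs from -16% to 8.41%. The *Mcu* log2 fold change was -0.01 without WT_8, -0.03 without Het_7, -0.12 without Het_2 and 0.00899 with the erythroid sum as a covariate (an alternative described with *Smdt1*).

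*Smdt1* encodes EMRE, the small subunit that *Mcu* needs for conduction, and lies on chromosome 15 from 82338959 to 82349091 (plus strand). It had 53.8, 46.6, 45.3 and 43.7 CPM in WT_4, WT_5, WT_6 and WT_8. It had 53.5, 50.9, 52.7 and 55.8 CPM in Het_2, Het_7, Het_484 and Het_491. All Opa1+/- mice were above 3 of the 4 WT mice, and WT_4 lay within the range of the Opa1+/- mice. The means were 47.3 ± 4.44 and 53.2 ± 2.04 CPM (SD, n = 4 each), which gave a log2 fold change of 0.17 (SE 0.0715, 95% interval from 0.01 to 0.33, adjusted p = 0.728 from edgeR). The unadjusted p from edgeR was 0.0413 in that fit, 0.00250 without WT_4 and 0.127 without WT_8. A second gene, *Pheta2*, overlaps *Smdt1* on the same strand over 6785 bases, and had 39 to 78 counts per mouse under its older symbol *Fam109b*.

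The *Smdt1* level moved with the amount of erythroid transcripts in the sample. Over the 8 mice, log2 CPM of *Smdt1* and log2 of the summed CPM of 10 erythroid genes (globins and *Alas2* among them) had a Pearson r of 0.960 (exact two-sided permutation test, p = 1.24e-04, adjusted p = 0.00893 over 72 relations of 9 genes with 8 marker lists). Spearman's rho was 0.976 (exact two-sided permutation test, p = 3.97e-04, adjusted p = 0.0286). Without the 2 mice farthest from the median of the erythroid sum, r was 0.878, and with each genotype centred on its own mean it was 0.953. Of the erythroid list, 10 of 10 measured genes (of 11 listed) had a higher mean in Opa1+/- mice and none was at 0. The list summed to 7754 to 21500 CPM in WT against 15090 to 25080 CPM in Opa1+/- mice, with WT_4 highest among the WT mice. In an edgeR fit with log2 of the erythroid sum as a covariate, chosen after the data were seen, the *Smdt1* log2 fold change was 0.05 (SE 0.0571, adjusted p = 0.946). The relation of *Smdt1* with the erythroid sum was the only one of the 72 with an adjusted p under 0.05, and what part blood in the tissue had in the *Smdt1* difference was not tested beyond these values.

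**Figure D2:**
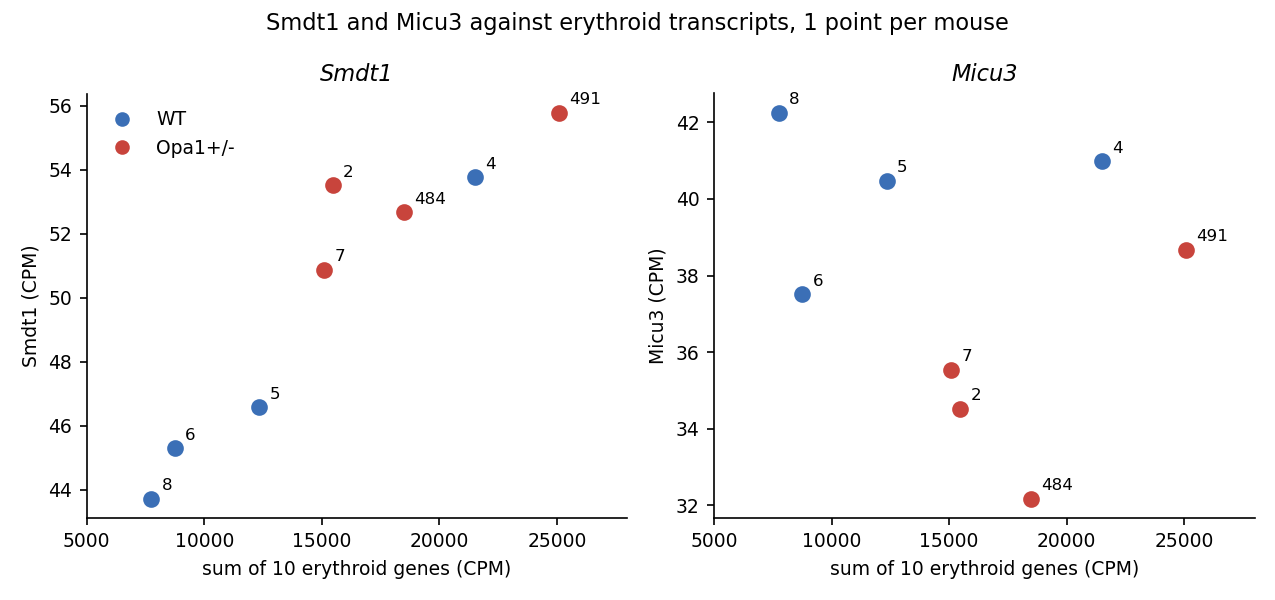
*Smdt1* (left) and *Micu3* (right) in CPM against the summed CPM of 10 erythroid genes, with 1 point per mouse labelled by its number, WT in blue and Opa1+/- in red. *Smdt1* follows the erythroid sum in both genotypes, with WT_4 among the Opa1+/- mice, while *Micu3* shows no such order (r = -0.294).

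*Micu3*, the gatekeeper best known from neurons, lies on chromosome 8 from 40307458 to 40386308 (plus strand) and gave the lowest p of the 9 genes. Its level was 41.0, 40.5, 37.5 and 42.3 CPM in WT_4, WT_5, WT_6 and WT_8. It was 34.5, 35.5, 32.2 and 38.7 CPM in Het_2, Het_7, Het_484 and Het_491. Of the Opa1+/- mice, 3 lay below every WT mouse, and Het_491 lay above WT_6. The means were 40.3 ± 2.00 and 35.2 ± 2.69 CPM (SD, n = 4 each), a log2 fold change of -0.19 (SE 0.0680, 95% interval from -0.35 to -0.04). The p from edgeR was 0.0178 before and 0.7215 after adjustment, which ranked it at place 454 of 19366 genes by p. Across 20 other settings the log2 fold change of *Micu3* stayed between -0.25 and -0.15, with no adjusted p under 0.423. The summed markers of spiral ganglion neurons, 11 genes, ran from 6793 to 7863 CPM in WT and from 6644 to 8020 CPM in Opa1+/- mice. Their r with *Micu3* over the 8 mice was 0.579 (exact two-sided permutation test, p = 0.136, adjusted p = 0.648) and rho 0.619 (exact two-sided permutation test, p = 0.115, adjusted p = 0.794), and r was 0.373 without the 2 mice farthest from the median of the neuron sum and 0.684 with each genotype centred on its own mean.

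*Micu2*, the more widely expressed gatekeeper, lies on chromosome 14 from 57916261 to 57999262 (minus strand). Its level was 41.4, 37.0, 39.6 and 38.6 CPM in WT_4, WT_5, WT_6 and WT_8 and 39.6, 39.5, 39.2 and 36.4 CPM in Het_2, Het_7, Het_484 and Het_491. Both groups spanned nearly the same range, with Het_491 the lowest of all. The log2 fold change was -0.02 with a 95% interval from -0.14 to 0.11 (adjusted p = 0.963 from edgeR), that is, between -9.50% and 7.89%, the narrowest interval of the 9 genes on the log2 scale. The SD between mice of one group was 4.41% of the mean, close to the 3.80% that counting 570 to 788 reads gives by itself.

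Of the exchangers, *Letm1* lies on chromosome 5 from 33739673 to 33782817 (minus strand). It had 71.4, 76.0, 76.8 and 64.3 CPM in WT_4, WT_5, WT_6 and WT_8 and 74.3, 77.6, 78.1 and 80.2 CPM in Het_2, Het_7, Het_484 and Het_491. Although 3 of the 4 Opa1+/- mice were above every WT mouse, WT_8 alone was far below the rest. The means were 72.2 ± 5.73 and 77.6 ± 2.47 CPM (SD, n = 4 each), and the log2 fold change was 0.10 (SE 0.0671, 95% interval from -0.05 to 0.25, adjusted p = 0.790 from edgeR). Without WT_8 it was 0.05.

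*Slc8b1*, the gene of NCLX, lies on chromosome 5 from 120511168 to 120534024 (plus strand) and was the least abundant of the 9 genes. Only 157 to 270 reads were counted per mouse, so counting alone gives a relative error of 6.97%. The levels were 8.96, 9.91, 13.6 and 13.2 CPM in WT_4, WT_5, WT_6 and WT_8 and 13.2, 11.1, 12.9 and 11.2 CPM in Het_2, Het_7, Het_484 and Het_491. The WT mice fell into a lower and a higher pair, and all Opa1+/- mice lay within their range. The log2 fold change was 0.09 (SE 0.148, adjusted p = 0.931 from edgeR), with a 95% interval from -0.25 to 0.42, the widest among the 9 genes. With 1 mouse left out it ranged from -0.01 (without WT_4) to 0.18 (without WT_6), and with the erythroid covariate it was 0.34 (unadjusted p = 0.0307, adjusted p = 0.930 from edgeR). In that fit *Slc8b1* and *Micu3*, not *Smdt1*, were the genes of the 9 with an unadjusted p under 0.05. Over the 8 mice *Slc8b1* had an r of 0.821 with the stria vascularis sum (exact two-sided permutation test, p = 0.0112, adjusted p = 0.201) and a rho of 0.762 (exact two-sided permutation test, p = 0.0368, adjusted p = 0.378), with 0.521 without the 2 mice farthest from the median of that sum and 0.828 with each genotype centred on its own mean. With the hair cell sum r was 0.720 (exact two-sided permutation test, p = 0.0393, adjusted p = 0.472) and rho 0.762 (exact two-sided permutation test, p = 0.0368, adjusted p = 0.378), and r was 0.272 without 2 mice and 0.837 centred. With the erythroid sum r was -0.502 (exact two-sided permutation test, p = 0.203, adjusted p = 0.664) and rho -0.429 (exact two-sided permutation test, p = 0.299, adjusted p = 0.798), with -0.0722 without 2 mice and -0.824 centred.

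The outer membrane channels were the most abundant of the 9 genes in CPM not divided by length. *Vdac1*, the main VDAC isoform of most tissues, lies on chromosome 11 from 52360860 to 52389397 (plus strand). It had 273.5, 260.4, 338.9 and 292.4 CPM in WT_4, WT_5, WT_6 and WT_8. It had 256.6, 290.0, 270.4 and 279.2 CPM in Het_2, Het_7, Het_484 and Het_491. WT_6 stood apart at the top, and this mouse also had the highest sums of hair cell genes (323.9 CPM), stria vascularis genes (721.4 CPM) and skeletal muscle genes, 2922 CPM against 28.9 to 1468 CPM in the other mice. Over the 8 mice *Vdac1* had an r of 0.516 with the muscle sum (exact two-sided permutation test, p = 0.189, adjusted p = 0.664) and a rho of 0.595 (exact two-sided permutation test, p = 0.132, adjusted p = 0.794), with 0.761 without the 2 mice farthest from its median and 0.458 with each genotype centred on its own mean. With the hair cell sum r was 0.607 (exact two-sided permutation test, p = 0.122, adjusted p = 0.648) and rho 0.357 (exact two-sided permutation test, p = 0.389, adjusted p = 0.833), with -0.156 without 2 mice and 0.572 centred. With the stria vascularis sum r was 0.476 (exact two-sided permutation test, p = 0.232, adjusted p = 0.664) and rho 0.333 (exact two-sided permutation test, p = 0.428, adjusted p = 0.833), with -0.107 without 2 mice and 0.543 centred. The log2 fold change was -0.09 (SE 0.0877, 95% interval from -0.28 to 0.11, adjusted p = 0.864 from edgeR), and -0.01 without WT_6, -0.05 without Het_2, -0.14 without WT_5 and -0.01 with the erythroid covariate. With 4339 to 5973 reads per mouse, counting gives a relative error of 1.41%, against an SD between mice of 9.29% of the mean.

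*Vdac2*, the isoform that also binds the apoptosis regulator BAK, lies on chromosome 14 from 21825238 to 21845879 (plus strand). Its level was 144.2, 158.5, 159.0 and 156.0 CPM in WT_4, WT_5, WT_6 and WT_8 and 151.0, 152.8, 142.6 and 145.6 CPM in Het_2, Het_7, Het_484 and Het_491. All Opa1+/- mice lay below WT_5, WT_6 and WT_8, with WT_4 among them, and the log2 fold change was -0.06 (95% interval from -0.19 to 0.07, adjusted p = 0.855 from edgeR). Over the 8 mice, *Vdac2* had a Pearson r of -0.849 with the erythroid sum (exact two-sided permutation test, p = 0.00967, adjusted p = 0.201) and a Spearman's rho of -0.833 (exact two-sided permutation test, p = 0.0154, adjusted p = 0.378). Without the 2 mice farthest from the median of the erythroid sum r was -0.849, and with each genotype centred on its own mean -0.787, so the relation failed the correction for 72 relations while keeping its sign. The neutrophil and marrow sum gave an r of -0.865 (exact two-sided permutation test, p = 0.00918, adjusted p = 0.201) and a rho of -0.762 (exact two-sided permutation test, p = 0.0368, adjusted p = 0.378), with -0.903 without 2 mice and -0.941 centred, in the same way. The hair cell sum gave an r of 0.761 (exact two-sided permutation test, p = 0.0203, adjusted p = 0.293) and a rho of 0.810 (exact two-sided permutation test, p = 0.0218, adjusted p = 0.378), with 0.651 without 2 mice and 0.763 centred. With the erythroid covariate the log2 fold change of *Vdac2* was -0.00490, and it was -0.09 without WT_4 and -0.04 without Het_484.

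*Vdac3*, which makes the third channel isoform, lies on chromosome 8 from 22577075 to 22593813 (minus strand). It had 104.1, 107.6, 105.1 and 103.6 CPM in WT_4, WT_5, WT_6 and WT_8 and 95.6, 103.7, 91.4 and 102.8 CPM in Het_2, Het_7, Het_484 and Het_491. The WT mice lay within a narrow band, and 3 of the 4 Opa1+/- mice lay below it, Het_7 just inside. The means were 105.1 ± 1.77 and 98.4 ± 5.90 CPM (SD, n = 4 each), with a log2 fold change of -0.10 (SE 0.0590, 95% interval from -0.23 to 0.04, adjusted p = 0.783 from edgeR). Without Het_484 it was -0.06.

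The copy *Vdac3-ps1* held 634 to 976 counts per mouse, a sizeable part of the reads of this sequence. Of the summed CPM of *Vdac3* and *Vdac3-ps1*, the copy took between 29.1% and 32.01% in every mouse, on average 30.1% in WT and 30.9% in Opa1+/- mice. The sum was 150.4 ± 3.80 CPM in WT against 142.3 ± 9.29 CPM in Opa1+/- mice (SD, n = 4 each). With the counts of both entries added, a setting chosen after the data were seen, the log2 fold change of *Vdac3* was -0.08 (SE 0.0628, adjusted p = 0.825 from edgeR). Summed over the VDAC genes without the copy, the level was 550.8 ± 37.2 CPM in WT against 520.4 ± 20.8 CPM in Opa1+/- mice (SD, n = 4 each). *Vdac1* supplied 52.8 ± 2.76% of that sum in WT and 52.7 ± 1.14% in Opa1+/- mice, *Vdac2* 28.1 ± 1.56% and 28.5 ± 1.07%, and *Vdac3* 19.1 ± 1.34% and 18.9 ± 0.564% (SD, n = 4 each).

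**Figure D3:**
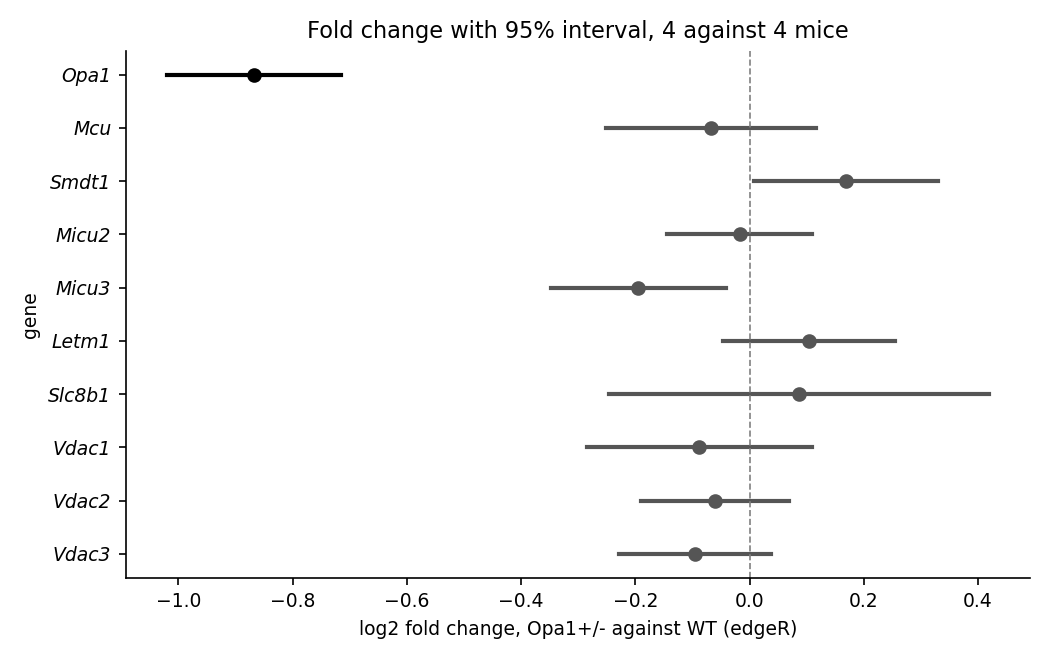
Log2 fold change of Opa1+/- against WT cochleae (edgeR, 4 against 4 mice) for *Opa1* and the 9 calcium transport genes, with bars for the 95% interval. *Opa1* lies at -0.87, far from the 9 genes, whose intervals reach from -0.35 at the lowest to 0.42 at the highest and include 0 except for *Smdt1* and *Micu3*.

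To compare levels between genes, CPM were divided by the length of the merged exons of each gene in kb. *Vdac1* was highest, at 111.2 ± 13.1 CPM per kb in WT and 104.6 ± 5.40 CPM per kb in Opa1+/- mice (SD, n = 4 each), above every other gene in 8 of 8 mice. *Smdt1* followed at 32.01 ± 3.003 and 36.0 ± 1.38 CPM per kb and *Vdac2* at 32.4 ± 1.46 and 31.0 ± 0.994 CPM per kb (SD, n = 4 each), and their ranges overlapped. Next came *Vdac3*, at 19.4 ± 0.327 and 18.2 ± 1.09 CPM per kb, and *Micu2*, at 12.7 ± 0.608 and 12.5 ± 0.498 CPM per kb (SD, n = 4 each), each apart from its neighbours in all mice.

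At the lower end stood *Letm1*, at 7.48 ± 0.594 and 8.04 ± 0.256 CPM per kb, and *Micu3*, at 6.55 ± 0.326 and 5.73 ± 0.438 CPM per kb (SD, n = 4 each), whose ranges overlapped. *Mcu*, at 4.13 ± 0.337 and 3.94 ± 0.332 CPM per kb, and *Slc8b1*, at 3.30 ± 0.675 and 3.50 ± 0.321 CPM per kb (SD, n = 4 each), overlapped as well, although *Mcu* was the higher of the pair in each of the 8 mice. The order depends on the length chosen, because merged exons take in every annotated exon of a gene. For *Vdac3* they cover 5420 bases against 1423 in the longest protein-coding transcript, and for *Mcu* 6936 against 2872. Per kb of the longest transcript *Vdac3* came to 73.8 ± 1.25 CPM per kb in WT, near *Vdac2* at 79.0 ± 3.56 CPM per kb (SD, n = 4 each). The levels of *Vdac3* leave out the reads on *Vdac3-ps1*, on average 30.1% of the summed CPM of the pair in WT. The split of these reads is uncertain, and so is the place of *Vdac3*. Only *Vdac1*, *Mcu* and *Slc8b1* kept their place in that order, and only *Vdac1*, *Vdac3* and *Slc8b1* with coding length.

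**Figure D4:**
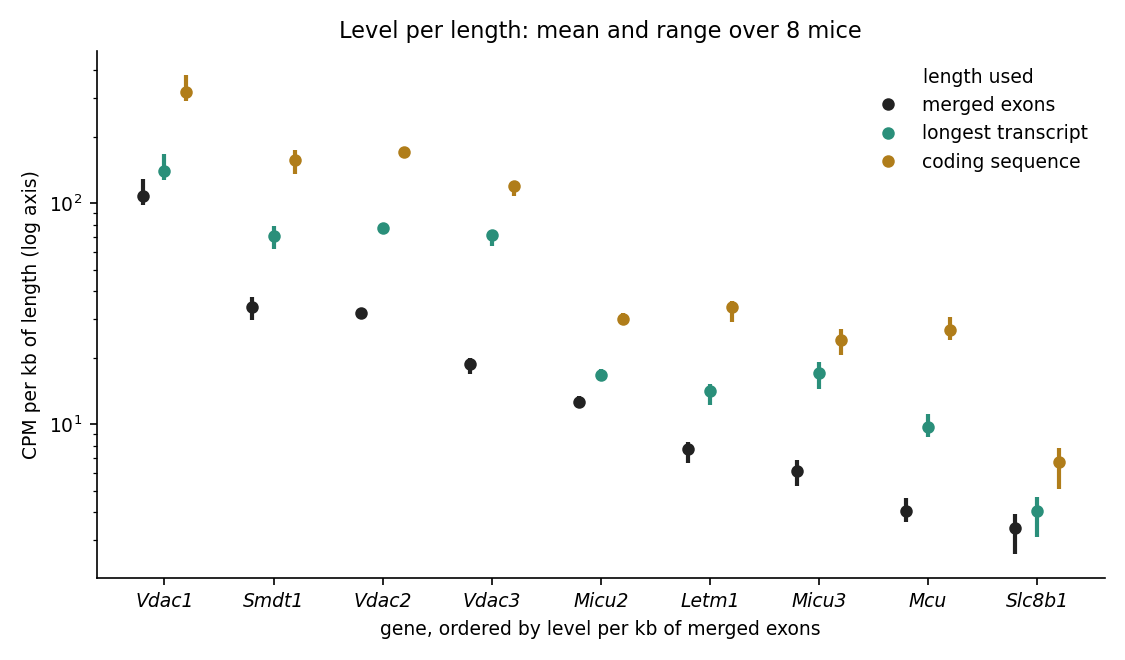
CPM per kb of length (log axis) of the 9 genes, as the mean (point) and range (bar) over 8 mice, with length taken as merged exons (black), longest protein-coding transcript (green) or coding sequence (ochre). *Vdac1* is highest and *Slc8b1* lowest with each length, while the genes between change places.

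Within the uniporter, the transcript of the small subunit outnumbered that of the pore. Per kb of merged exons, *Smdt1* stood to *Mcu* at 7.82 ± 1.21 in WT and 9.17 ± 0.666 in Opa1+/- mice (SD, n = 4 each), with ranges of 6.40 to 9.32 and 8.21 to 9.71 that overlapped. *Micu2* stood to *Mcu* at 3.09 ± 0.302 and 3.20 ± 0.277, and *Micu3* to *Mcu* at 1.59 ± 0.119 and 1.46 ± 0.172 (SD, n = 4 each). The ratio of *Micu3* to *Micu2* was 0.517 ± 0.0378 in WT and 0.458 ± 0.0524 in Opa1+/- mice (SD, n = 4 each), again with overlapping ranges. With the longest transcript as length this ratio was 1.08 ± 0.0790 and 0.959 ± 0.110 (SD, n = 4 each), so which gatekeeper transcript was in excess depends on the length used. No ratio computed between these genes separated the groups.

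No relation between the levels of the 9 genes was established over the 8 mice. Of 36 pairs, 16 had a positive Pearson r over the 8 mice, and 0 had an adjusted p under 0.05 (exact two-sided permutation test), with 3 below 0.05 before adjustment. The pair with the lowest p was *Micu3* and *Vdac3*, with r = 0.816 (exact two-sided permutation test, p = 0.00920, adjusted p = 0.298) and Spearman's rho of 0.548 (exact two-sided permutation test, p = 0.171, adjusted p = 0.784). Without the 2 mice farthest from the median of *Micu3*, r was 0.718, and around the group means it was 0.642. By contrast *Smdt1* and *Vdac2* ran against each other, with r = -0.841 (exact two-sided permutation test, p = 0.0166, adjusted p = 0.298) and rho = -0.762 (exact two-sided permutation test, p = 0.0368, adjusted p = 0.784), -0.809 without the 2 mice farthest from the median of *Smdt1*.

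As a description of likeness, log2 CPM over the 8 mice was compared with that of 10301 protein-coding genes of at least 10 CPM. The most similar gene by Pearson r was *Slc43a1* for *Smdt1* (r = 0.990), *Nsg1* for *Vdac1* (0.987), *Wdr91* for *Slc8b1* (0.982), *Vbp1* for *Micu3* (0.976) and *Arf4* for *Vdac2* (0.970). For *Letm1* it was *Aldh1l1* (r = 0.968), for *Vdac3* *Ube4a* (0.958), for *Mcu* *Rras2* (0.934) and for *Micu2* *Smg6* (0.921). Each is the highest of all these comparisons over 8 mice.

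The pathway around these genes was examined with 6 lists of 63 genes, of which 62 were tested. None of the 62 passed an adjusted p of 0.05, and 3 (4.84%) had an unadjusted p under 0.05, 1 higher and 2 lower in Opa1+/- mice, against 6.72% of all genes tested. The count of 3 was 1 without WT_8 or Het_484 (718 and 942 of all genes tested) and 2 without Het_2 or Het_7 (1087 and 1361). It was 4 without WT_4, WT_6 or Het_491 (2006, 1517 and 1096). By method it was 6 with limma voom (1994), 4 with total counts alone (1237) and 2 with robust estimation (1275). With mitochondrially encoded genes left out of library sizes (1290), no filter (1586 of 34939 tested) or without both Opa1+/- mice with 3-digit numbers (565) it was 1. Regulators of the uniporter, 8 genes with the pore paralog *Mcub* among them, named after its values were seen, had log2 fold changes from -0.12 to 0.12 with a median of 0.02. *Slc25a23*, a calcium-binding ATP carrier reported to assist the uniporter, had 102.5 ± 7.91 and 105.6 ± 4.29 CPM (SD, n = 4 each). *Yme1l1*, an inner membrane protease, had 78.2 ± 5.29 and 71.8 ± 3.58 CPM (SD, n = 4 each, adjusted p = 0.762 from edgeR). In the 10 genes of calcium-sensing carriers and exchangers the median was -0.02, with *Ghitm*, an inner membrane calcium-proton exchanger, at 311.2 ± 14.9 and 322.2 ± 27.2 CPM, and the aspartate-glutamate carrier *Slc25a12* at 133.8 ± 13.9 and 124.0 ± 5.52 CPM (SD, n = 4 each).

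Among partners of the VDAC proteins, *Tspo*, an outer membrane protein that binds cholesterol, showed the lowest p of the 62 genes. It had 23.1, 22.2, 19.0 and 20.8 CPM in WT_4, WT_5, WT_6 and WT_8 and 28.6, 22.0, 26.1 and 28.3 CPM in Het_2, Het_7, Het_484 and Het_491. Het_7 lay among the WT mice, and the log2 fold change was 0.30 (SE 0.0983, adjusted p = 0.7215 from edgeR). The adenine nucleotide carriers *Slc25a4* and *Slc25a5*, the most abundant of the list, stood at 464.3 ± 33.8 and 453.1 ± 19.9 CPM and at 197.8 ± 2.53 and 197.7 ± 4.38 CPM, respectively (SD, n = 4 each). The groups did not overlap for *Hk1*, a hexokinase that docks on VDAC1, named after its values were seen, and with *Fundc1* this was so for 2 of the 62 genes, against 4.31% of all genes tested. *Hk1* had means of 179.2 ± 1.55 and 189.0 ± 2.56 CPM (SD, n = 4 each, adjusted p = 0.790 from edgeR). The median over 10 tested genes of this list was 0.01, and *Slc25a31* was not tested for low counts.

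At contact sites with the endoplasmic reticulum, *Fundc1*, a mitophagy receptor of the outer membrane, had 53.2 to 61.9 CPM in WT against 48.9 to 52.6 CPM in Opa1+/- mice. The groups did not overlap, as for 4.31% of all genes, and the log2 fold change was -0.14 (SE 0.0604, adjusted p = 0.735 from edgeR). *Hspa9*, the chaperone that links VDAC1 to the inositol trisphosphate receptor, had 252.6 ± 15.5 and 262.9 ± 9.71 CPM (SD, n = 4 each). The receptor gene *Itpr1* had 213.4 ± 32.6 and 185.7 ± 38.3 CPM (SD, n = 4 each, adjusted p = 0.831 from edgeR).

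Of the 16 pumps, exchangers and release channels of the cell, 14 had a lower mean in Opa1+/- mice. The median log2 fold change was -0.08, against 4.0e-04 over all genes tested, and only 1 of the 16 had an unadjusted p under 0.05 in edgeR. In the other lists, 5 of 8 uniporter regulators, 3 of 10 carriers and exchangers and 5 of 10 VDAC partners had a higher mean. So did 5 of 10 contact site genes and 3 of 8 buffers. *Atp2a2*, the widely expressed calcium pump of the endoplasmic reticulum, had 224.1, 241.6, 249.5 and 266.4 CPM in WT_4, WT_5, WT_6 and WT_8 and 218.2, 221.1, 218.5 and 228.6 CPM in Het_2, Het_7, Het_484 and Het_491. Only WT_4 fell within the range of the Opa1+/- mice, and the log2 fold change was -0.15 (SE 0.0650, adjusted p = 0.737 from edgeR). *Atp2b1*, a plasma membrane calcium pump, had 159.7 ± 5.11 and 153.0 ± 11.8 CPM (SD, n = 4 each). The lowest value of this list belonged to *Atp2a1*, the calcium pump of fast skeletal muscle, named after its values were seen, with a log2 fold change of -0.55 (SE 0.969, adjusted p = 0.933 from edgeR). All 12 skeletal muscle markers likewise had a lower fitted value in Opa1+/- mice, with a median log2 fold change of -0.72 and sums of 313.4 to 2922 CPM in WT against 28.9 to 1468 CPM in Opa1+/- mice, and their part in this list was not tested. Among 8 cytosolic calcium buffers the median was -0.02, with *Calm2*, a calmodulin gene, at 777.3 ± 44.6 and 765.2 ± 25.1 CPM (SD, n = 4 each).

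**Figure D5:**
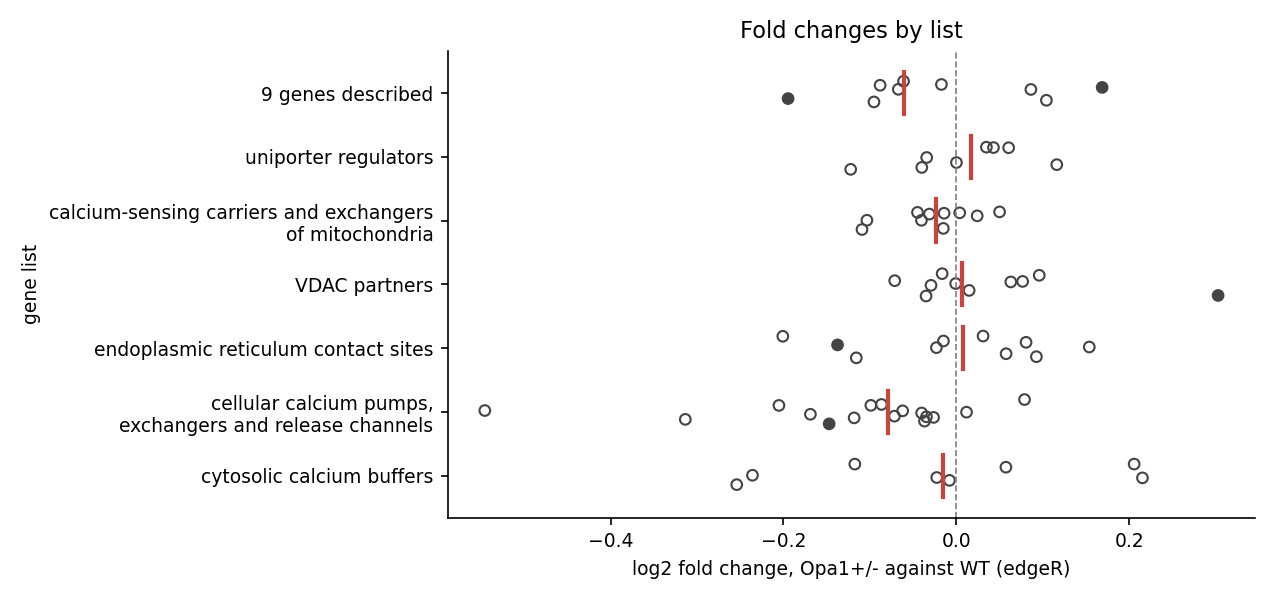
Log2 fold change of Opa1+/- against WT cochleae (edgeR) for the 9 genes described and for 6 lists of related genes, with 1 circle per gene, filled where the unadjusted p was under 0.05, and a red bar at the median. Most of the genes lie within 0.2 of 0, and none passed an adjusted p of 0.05.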

How the data were processed

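Cochlear RNA of 4 WT and 4 Opa1+/- mice was sequenced from CORALL libraries as paired reads of 80 bases. The authors trimmed adapters, mapped reads to GRCm38 with STAR, used molecular identifiers against amplification bias and deposited raw counts per gene symbol for each mouse. The counting program and its use of strand are not given in the sources used here, so overlapping genes and near-identical copies are uncertain. Per the study, extraction used TRI Reagent, and the labels also name an RNeasy kit without saying for which mice.

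In each table, 15 entries named by a number only, with 0.112% to 0.124% of the counts, were left out. Groups were taken from the sample titles. Library sizes were scaled by TMM factors (0.948 to 1.06), and genes with a mean size-factor-normalized count over 10 were tested with edgeR 4.0.16 (quasi-likelihood, Benjamini-Hochberg). SEs were derived from the F statistic of each gene, and 95% intervals from the t distribution. DESeq2 1.42.0, limma 3.58.1 voom, other scalings and filters, and each mouse left out in turn were alternatives. Intervals rest on the spread between mice, and relative counting errors cover counting only.

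The members and lists were chosen with earlier results of these data known. The genes named in the text are the 9 members, *Opa1*, the 2 most abundant genes of each pathway list and those with an unadjusted p under 0.05 (at most 4), up to 2 markers per list, and the gene most like each member. *Mcub*, *Hk1*, *Atp2a1* and genes that share or overlap sequence with a member are named outside this rule, after their values were seen. Some genes that the rule names are not reported here. Markers of 8 cell types were summed per mouse. Of these lists, hair cell genes summed to 212.2 to 323.9 CPM, stria vascularis genes to 362.3 to 721.4 CPM, neutrophil and marrow genes to 435.5 to 1429 CPM and bone genes to 521.4 to 725.4 CPM per mouse. *Mcub* and *Maip1* were found under older symbols by RefSeq synonyms (GRCm38.p6). Positions, lengths and transcript sequences are from GENCODE vM21 (GRCm38), and coding sequences were aligned with mafft 7.526. Protein sequences were not used here. R 4.3.3, Python 3.11.15, scipy 1.17.1 and matplotlib 3.10.9 were used.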

Additional observations from a re-analysis of the deposited data

Results flagged for a closer look

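*Micu2* in Het_491, at 36.4 CPM, stood apart from the other Opa1+/- mice, the nearest of which was at 39.2 CPM. Its gap was 0.864 of the range of the group, above Dixon's 95% critical value for 4 samples. It was the 1 value singled out among 18 groups of 4 mice, and chance flags about 1 in 20 groups. Without this mouse the *Micu2* log2 fold change was 0.00762 in place of -0.02.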

How the results depend on the processing

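No adjusted p of the 9 genes fell under 0.05 in any of the alternatives run. No paired analysis was possible because no replicate number occurs in both genotypes. The count of all genes called, 5, was 23 with DESeq2 and 22 with DESeq2 and a prior (both fitted and adjusted before the minimum count was applied, so that test and filter change together), 10 with voom, 10 with robust estimation, 12 without a filter and 11 at an adjusted threshold of 0.1. Leaving out 1 mouse it ranged from 0 to 9 (9 without WT_4, 2 without WT_5, 1 without WT_6 or WT_8, 0 without Het_2, 8 without Het_7, and 1 without Het_484 or Het_491). The count from edgeR was 0 with the erythroid covariate and without both Opa1+/- mice with 3-digit numbers, where 901 and 565 genes had an unadjusted p under 0.05, and 1087 without Het_2. In those fits the *Opa1* log2 fold change was -0.89 (adjusted p = 0.0537 from edgeR) and -0.86 (adjusted p = 0.260), and with 1 mouse left out it lay between -0.90 and -0.83 (without Het_2 -0.85, adjusted p = 0.0704 from edgeR). Of the 9 genes, those with an unadjusted p under 0.05 numbered 1 with total counts alone (1237 of all genes tested), DESeq2 (1087) or DESeq2 with a prior (1081). They numbered 1 without both mice with 3-digit numbers (565 of all genes tested), and 0 to 2 with 1 mouse left out (718 to 2006). *Micu2* turned to 0.0117 with voom and 0.0153 without both of those mice, and lay between -0.044 and 0.012 with 1 mouse left out. *Slc8b1* lay between -0.012 and 0.18 with 1 mouse left out, and *Mcu* was 0.00899 with the erythroid covariate. Of the 9 places in the order of levels per length, 3 stayed with coding length and 3 with the longest transcript. The causes of these shifts were not tested. The smallest difference that 4 mice a group could detect was not measured.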
